A study of Mus musculus with 6 samples.

Results

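The aryl hydrocarbon receptor (Ahr), its partner Arnt and 8 genes of the same response were followed across 6 mouse arrays. The 10 genes were Ahr, Arnt, Ahrr, Cyp1a1, Cyp1b1, Tiparp, Aldh3a1, Nfe2l2, Nqo1 and Scin. They were chosen by gene symbol in the platform's probe annotation, and each had 1 probe set, so they make up 10 of the 19505 genes measured. The RNA is labelled as that of colon crypts, the glands that line the large bowel, and the mice were C57BL/6J. Control mice, titled PBS, gave 3 arrays, and mice that received mulberry bark exosome-like nanoparticles (MBELN) by mouth, 100 µl a day for 7 days, gave the other 3. The mice carried no named transgene or deletion, and their age is not given in the sources used here. Whether each array stands for its own mouse is not in the labels, and p-values therefore reflect the spread among these arrays. Part of that spread may be technical, and arrays of 1 label also differed in tissue markers, as given below. The SEs and intervals hold that spread too. The series asked which crypt transcripts differ after MBELN, and Ahr is the sensor that work on these nanoparticles has addressed.

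Ahr is a transcription factor that waits in the cytoplasm with chaperones until a plant, microbial or synthetic compound binds it. It then enters the nucleus, pairs with Arnt and binds short elements with the letters GCGTG before genes such as Cyp1a1, whose products break its ligands down. Ahrr and Tiparp are induced in the same way and dampen the receptor. In the gut, the pathway is known for its part in epithelial barrier function and in the upkeep of intraepithelial lymphocytes and innate lymphoid cells.

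All values are the deposited probe set values, read as log2. A value was called above background where it exceeded the receptor level of its array, the 95th percentile of 1412 probe sets for olfactory and vomeronasal receptors (3.99 to 4.44 across the arrays). The arrays differed strongly in tissue markers. The median of 15 gut epithelial genes lay between 17.57 and 17.83 in the PBS arrays and between 3.32 and 4.89 in the MBELN arrays. The median of 15 heart muscle genes was 18.22 in MBELN 1 and 18.48 in MBELN 3, and 4.0 or below in the other 4 arrays. In MBELN 2 the median of 14 neuronal genes was 15.54 and that of 11 glial genes 7.64, whereas both lists were near or below the receptor level elsewhere. Among the PBS arrays, PBS 1 and PBS 3 had Paneth cell medians of 19.45 and 19.76, and PBS 2 had 3.44. The colon epithelial median of PBS 2 was 14.74, against 5.59 and 6.95 for PBS 1 and PBS 3. The labelled tissue was therefore not borne out by its markers in the 3 MBELN arrays, and PBS 1 and PBS 3 carried small intestinal markers. The groups below are named by their labels, and fell and rose mean lower and higher in the MBELN arrays. The tissue markers differed along with the labels, so a difference between labels cannot be told apart from one between tissues. In such bulk RNA, fewer cells of a type and less RNA per cell cannot be told apart.

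**Figure D1:**
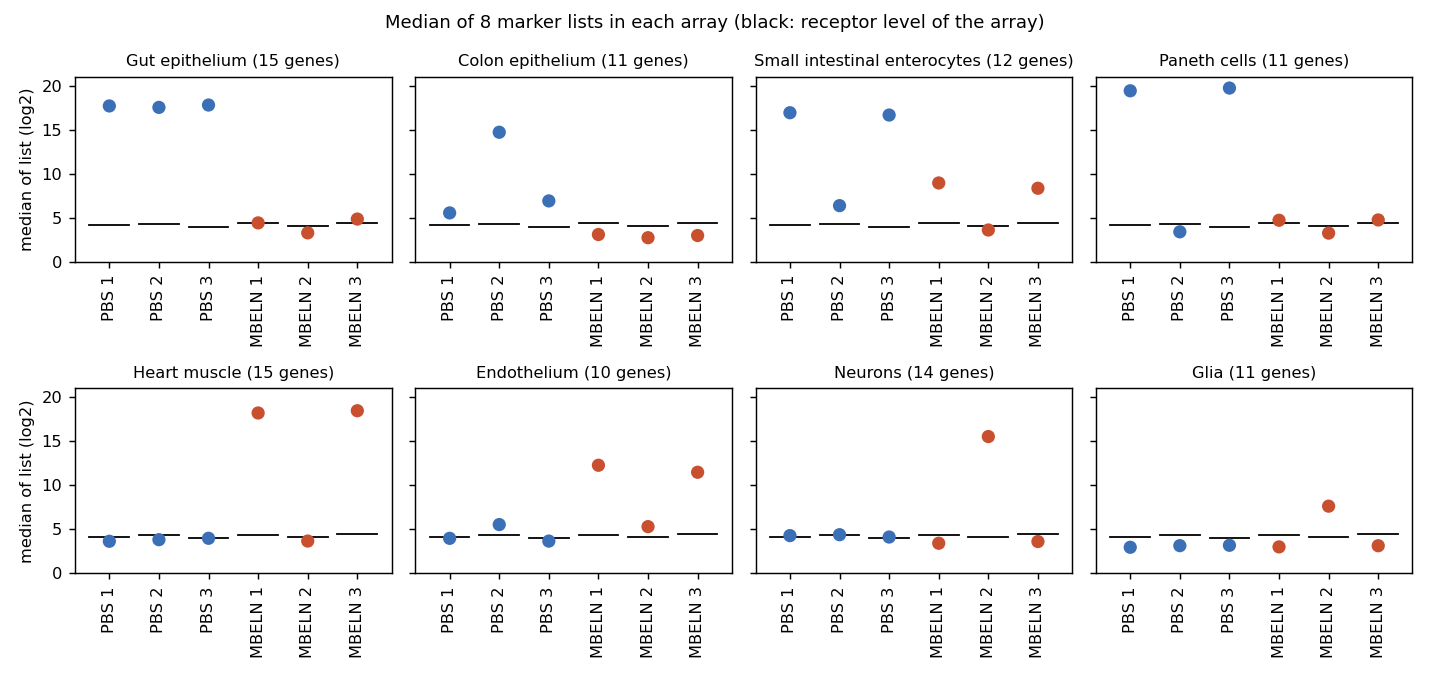
Median log2 value of 8 marker lists (y axis) in each array (x axis), with PBS arrays in blue, MBELN arrays in red and the receptor level of each array as a black line. Gut epithelial medians are 17.57 to 17.83 in PBS and 3.32 to 4.89 in MBELN, heart muscle genes stand high in MBELN 1 and MBELN 3, and neuronal genes in MBELN 2.

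Of the 10 genes, 1 fell in the MBELN arrays, 0 rose and 9 did not pass the test (limma, Benjamini-Hochberg adjustment over all probe sets, threshold 0.05). The gene that fell was Scin. It was also the single gene of the 10 with an unadjusted p under 0.05, against 17.8% of all probe sets. Over all 22206 probe sets, 5.18% passed, with 3.76% lower and 1.42% higher, so 1 of 10 is not far from the background. For 3 of the 10 genes the groups did not overlap, which was so for 25.3% of all probe sets. These were Scin and Ahrr, lower in MBELN, and Aldh3a1, higher in MBELN and below the receptor level in every array. The median difference of the 10 genes was 0.01 log2 units, against 0.09 over all probe sets. Their median absolute difference of 0.58 stood beside 0.60 over all probe sets. Without PBS 2 and MBELN 2, the arrays that stood apart within their groups, 2 of the 10 passed, Scin lower and Nqo1 higher, a count that stands beside 30.5% of all probe sets in that setting. Without PBS 1, PBS 3, MBELN 1 or MBELN 3 in turn, 0 passed (limma), with 1 gene at an unadjusted p under 0.05 each time. Of all probe sets, 1.7%, 1.71%, 2.26% and 2.01% passed in these settings.

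**Figure D2:**
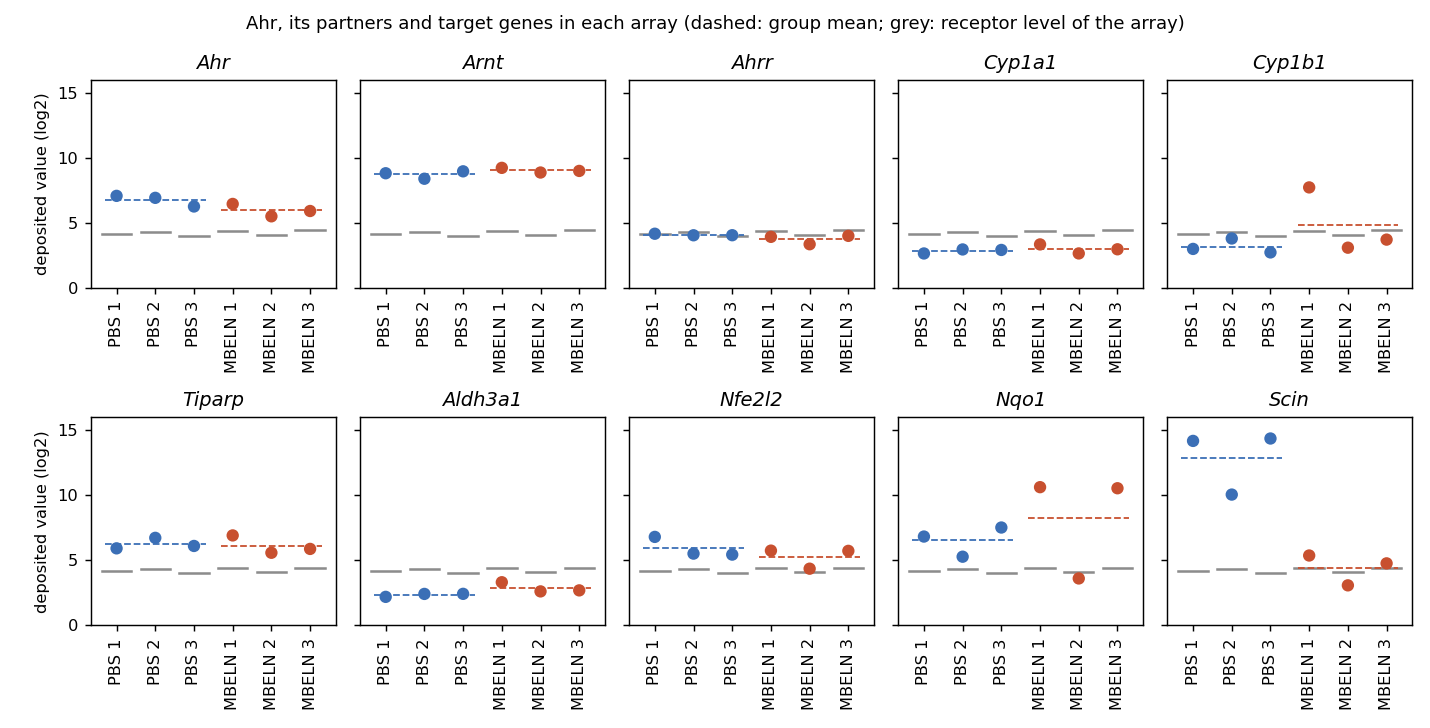
Deposited log2 value (y axis) of the 10 genes in each array (x axis), with PBS in blue, MBELN in red, group means as dashed lines and the receptor level of each array as grey lines. Scin runs from 10.05 to 14.36 in PBS and from 3.08 to 5.37 in MBELN, Nqo1 is high in MBELN 1 and MBELN 3 and low in MBELN 2, and Cyp1a1 and Aldh3a1 lie below the receptor level in all 6 arrays.

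To describe these genes in sequence, promoter windows were read from RefSeq (GRCm38.p6), which held 8 of the 10 genes. The window is the 250 bases before the annotated start. Elements farther out were not searched, so an empty window does not mean that a gene lacks them. The letters GCGTG, searched on both strands (CACGC on the other), occurred in 6 of the 8 windows, those of Ahrr, Arnt, Cyp1a1, Cyp1b1, Scin and Tiparp, and in 28.2% of all 32851 windows of this length. Ahrr held 3 copies, at 107, 82 and 27 bases before the start, and 2.77% of all windows held 3 or more. The longer form TNGCGTG, each match of which is also a GCGTG match, occurred in Ahrr alone among the 8 and in 4.10% of all windows. A core of the antioxidant response element, TGACNNNGC, searched on both strands, occurred in Arnt and Nfe2l2 and in 10.2% of all windows. A match is a description of the letters and no evidence of binding. The 4 windows below are those of the gene that fell, of the classic target that stayed dim, of the window with most copies and of the target that divided the MBELN arrays, in lower case with GCGTG or CACGC in capitals. They lie at chr12:40134229-40134478 on the minus strand (Scin), chr9:57697363-57697612 on the plus strand (Cyp1a1), chr13:74292332-74292581 on the minus strand (Ahrr) and chr8:107403206-107403455 on the minus strand (Nqo1).
Scin: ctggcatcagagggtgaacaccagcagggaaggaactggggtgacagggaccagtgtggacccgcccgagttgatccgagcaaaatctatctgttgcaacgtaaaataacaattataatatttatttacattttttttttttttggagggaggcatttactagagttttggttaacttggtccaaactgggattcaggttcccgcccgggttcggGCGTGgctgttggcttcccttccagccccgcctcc
Cyp1a1: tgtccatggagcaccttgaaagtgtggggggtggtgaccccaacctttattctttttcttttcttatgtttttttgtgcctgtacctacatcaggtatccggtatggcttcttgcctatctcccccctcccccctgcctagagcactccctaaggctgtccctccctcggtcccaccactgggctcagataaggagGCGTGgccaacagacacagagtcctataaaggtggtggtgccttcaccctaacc
Ahrr: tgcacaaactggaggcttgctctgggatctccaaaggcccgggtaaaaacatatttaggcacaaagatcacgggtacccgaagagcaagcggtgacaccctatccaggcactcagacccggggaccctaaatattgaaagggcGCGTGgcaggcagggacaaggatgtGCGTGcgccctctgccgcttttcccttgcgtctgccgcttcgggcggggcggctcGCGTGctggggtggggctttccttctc
Nqo1: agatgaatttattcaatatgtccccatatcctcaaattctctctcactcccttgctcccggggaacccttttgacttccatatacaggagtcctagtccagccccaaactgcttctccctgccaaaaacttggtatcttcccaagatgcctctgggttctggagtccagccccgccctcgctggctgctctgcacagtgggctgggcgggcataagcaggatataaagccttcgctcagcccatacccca

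Ahr itself was above the receptor level in all 6 arrays. It read 7.09, 6.93 and 6.27 in PBS 1, 2 and 3, against 6.46, 5.51 and 5.92 in MBELN 1, 2 and 3. PBS 3 lay below MBELN 1, so the groups overlapped. The mean was 6.76 ± 0.43 in PBS and 5.97 ± 0.48 in the MBELN arrays (log2, SD, n = 3). The difference of -0.80 had a 95% interval from -1.76 to 0.17 and did not pass the test (limma, adjusted p = 0.369). That difference was -0.48 without PBS 2 and MBELN 2, and stayed negative in all 17 alternatives in which it was computed. Over the arrays, Ahr spanned 1.57 log2 units, against a median span of 1.95 over all probe sets. Leukocytes are among the gut cells known to express Ahr, and the median of 10 leukocyte genes was 6.67, 6.23 and 4.70 in the PBS arrays, against 5.27, 4.38 and 4.84 in the MBELN arrays. The list did not move as one. Of its 10 genes, 6 were highest in PBS 1, as Ahr was, and 3, the macrophage genes Csf1r, Adgre1 and Lyz2, were highest in MBELN 1. The part of these cells in the Ahr values was not tested.

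Arnt, the partner that the receptor needs to bind DNA and that also serves the hypoxia factors, varied least of the genes above background in all arrays. It read 8.82, 8.40 and 8.97 in the PBS arrays, against 9.24, 8.88 and 9.0 in the MBELN arrays, with the lowest value in PBS 2 and overlap between the groups. The difference of 0.31 ± 0.29 (log2, SE, n = 3) had a 95% interval from -0.41 to 1.02 (limma, adjusted p = 0.632). Its span over the 6 arrays was 0.84 log2 units, although these arrays differed by over 10 log2 units in marker lists.

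Ahrr, the repressor that competes with Ahr for Arnt, sat close to the receptor level throughout. It read 4.18, 4.06 and 4.06 in the PBS arrays, against 3.94, 3.37 and 4.01 in the MBELN arrays. PBS 3 was the single array in which it exceeded that level, by a small margin. All 3 MBELN values were below the 3 PBS values, yet MBELN 3 and PBS 2 differed by less than 0.1. The difference was -0.33 ± 0.29 (log2, SE, n = 3; limma, adjusted p = 0.618), and with the PBS and MBELN means at 4.10 and 3.77 no fold is given.

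Tiparp, an ADP-ribosyltransferase induced by the receptor that in turn limits it, was above the receptor level in all 6 arrays. It read 5.92, 6.73 and 6.11 in the PBS arrays, against 6.92, 5.58 and 5.88 in the MBELN arrays. The highest value was in MBELN 1 and the lowest in MBELN 2, so the groups overlapped fully. The difference was -0.13 with a 95% interval from -1.27 to 1.02 (limma, adjusted p = 0.913), and it was 0.38 without PBS 2 and MBELN 2.

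Cyp1a1, the cytochrome P450 used most often as a readout of receptor activity, lay below the receptor level in all 6 arrays. It read 2.66, 2.97 and 2.93 in the PBS arrays, against 3.36, 2.67 and 2.98 in the MBELN arrays. These values carry no order, and the lack of a call says nothing about a change below that level. Aldh3a1, an aldehyde dehydrogenase of the same response, was likewise below it, at 2.20, 2.42 and 2.43 in the PBS arrays, against 3.32, 2.62 and 2.70 in the MBELN arrays. Of all probe sets, 28.8% were below the receptor level in all 6 arrays.

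Cyp1b1, the P450 of the same family that is known from vessels and connective tissue as well as from the receptor's response, exceeded the receptor level in 1 array. That array was MBELN 1, with 7.73, while MBELN 2 and 3 gave 3.11 and 3.73. The PBS arrays gave 3.01, 3.81 and 2.74. MBELN 1 therefore stood at least 3.63 above MBELN 2, taken at its receptor level, and the other 5 arrays gave no value above background. The MBELN mean was 4.86 ± 2.51 (log2, SD, n = 3), with 1 of 3 MBELN arrays measured above the receptor level, so no fold is given. There was no call (limma, adjusted p = 0.564). The difference of the group means was 1.67, and 0.23 without MBELN 1. In MBELN 1 and MBELN 3 the medians were 18.22 and 18.48 for heart muscle genes, 12.29 and 11.49 for endothelial genes and 10.49 and 11.24 for fibroblast genes. Cyp1b1 was above the receptor level in MBELN 1 and below it in MBELN 3. The part of vessel, connective tissue or heart cells in its values was not tested.

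Nfe2l2 encodes Nrf2, the factor of the antioxidant response, which Ahr is known to induce and which shares Nqo1 as a target. It read 6.80, 5.52 and 5.44 in the PBS arrays, against 5.75, 4.36 and 5.73 in the MBELN arrays. PBS 1 was highest and MBELN 2 lowest, and the remaining 4 arrays lay between 5.44 and 5.75. The difference was -0.64 ± 0.58 (log2, SE, n = 3; limma, adjusted p = 0.623). It was 0.22 within the arrays of higher hybridisation control level and -1.76 within those of lower level, a split with 1 array alone in a group that is described with Nqo1 below.

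Nqo1, a quinone reductase induced through both Ahr and Nrf2, divided the MBELN arrays. MBELN 1 and MBELN 3 gave 10.62 and 10.54, while MBELN 2 gave 3.61, below the receptor level of that array. In the PBS arrays it read 6.83, 5.28 and 7.52. MBELN 1 and MBELN 3 were thus above every PBS array and MBELN 2 below every one. Against the receptor level of MBELN 2, MBELN 1 and MBELN 3 were at least 6.52 and 6.44 log2 units higher. The group difference of 1.71 ± 2.04 (log2, SE, n = 3) did not pass (limma, adjusted p = 0.708), with a 95% interval from -3.36 to 6.79. Without MBELN 2 it was 4.03 ± 0.68 and passed (adjusted p = 0.0148). With PBS 2 and MBELN 2 both left out it was 3.40 ± 0.36 (limma, adjusted p = 0.000456), an alternative added once the values were known.

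Signals of the hybridisation controls lay at a higher level in PBS 2, MBELN 1 and MBELN 3 (9.79 to 10.09) and a lower one in PBS 1, PBS 3 and MBELN 2 (8.43 to 8.98). This split was made after the values were known and leaves 1 array alone in a group on either side, so Nqo1 is given within it as values without a test. Within the higher level, the mean of MBELN 1 and MBELN 3 was 5.30 above PBS 2. Within the lower level, the mean of PBS 1 and PBS 3 was at least 3.07 above MBELN 2, taken at its receptor level. These pairs set heart-marked arrays against PBS 2, and the neuron-marked MBELN 2 against PBS 1 and PBS 3. The heart muscle medians of 18.22, 3.68 and 18.48 in MBELN 1, 2 and 3 moved with the Nqo1 values, and their part in them was not tested.

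Scin encodes scinderin, a calcium-dependent protein that severs actin filaments, known to be induced by receptor ligands in the mouse thymus. It read 14.17, 10.05 and 14.36 in PBS 1, 2 and 3. The MBELN arrays gave 5.37, 3.08 and 4.77, and of these MBELN 2 was below the receptor level. The groups did not overlap, and the gap between PBS 2 and MBELN 1 alone was wider than the span of Tiparp or Arnt over all arrays. Scin fell by 8.45 ± 1.34 (log2 units, SE, n = 3; limma, adjusted p = 0.0262), and 0.995% of all probe sets had a larger difference in either direction. The call ended without PBS 1 (limma, adjusted p = 0.121), PBS 3 (0.115), MBELN 1 (0.0857) or MBELN 3 (0.0998). The difference was -9.19 ± 0.35 (SE) without PBS 2 and MBELN 2.

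Within PBS, Scin was 4.12 and 4.30 log2 units higher in PBS 1 and PBS 3 than in PBS 2. Within MBELN, MBELN 1 and MBELN 3 were at least 1.27 and 0.67 above MBELN 2, taken at its receptor level. Within the higher hybridisation control level, the difference of MBELN 1 and MBELN 3 from PBS 2 was -4.98. Within the lower, PBS 1 and PBS 3 were on average at least 10.16 above MBELN 2, again with 1 array alone in a group and no test. Beside it, the gut epithelial median was 17.73, 17.57 and 17.83 in PBS 1, 2 and 3, against 4.46, 3.32 and 4.89 in MBELN 1, 2 and 3. The number of the 15 gut epithelial genes above the receptor level was 14 or 15 in the PBS arrays and 8, 1 and 9 in the MBELN arrays. The small intestinal enterocyte median was 16.96, 6.41 and 16.70 in the PBS arrays and 8.99, 3.65 and 8.39 in the MBELN arrays. The part of these markers in the fall of Scin was not tested.

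**Figure D3:**
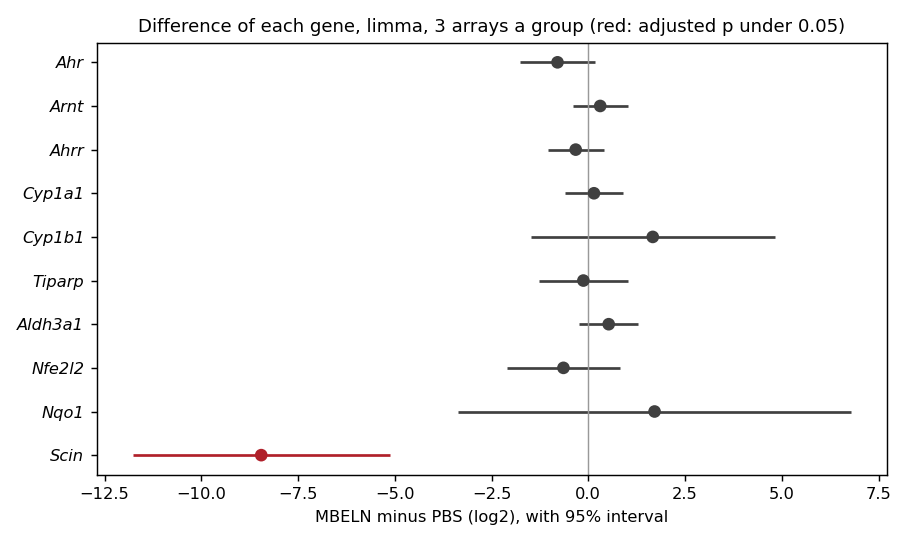
Difference of group means, MBELN minus PBS on the log2 scale (x axis), for the 10 genes (y axis), with the 95% interval of the limma fit on 3 arrays a group. The interval of Scin runs from -11.77 to -5.13, and those of the other 9 genes hold 0, with the widest for Nqo1 (-3.36 to 6.79).

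**Figure D4:**
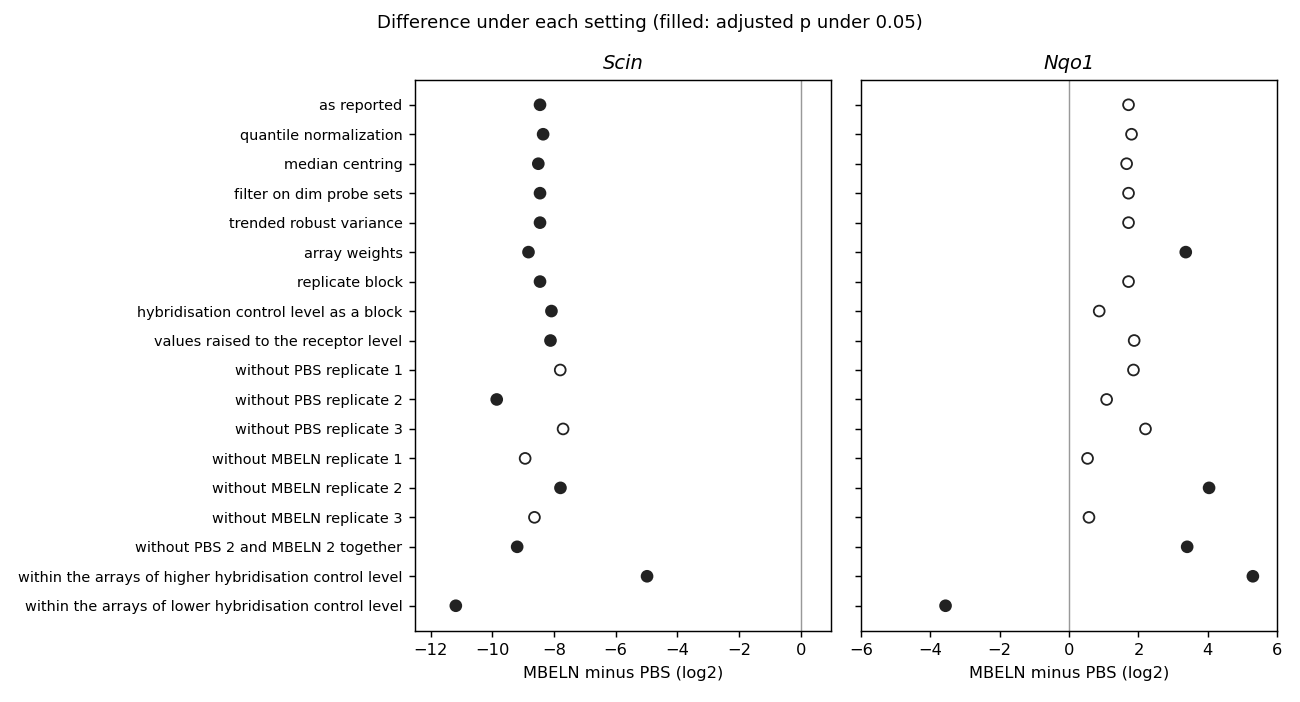
Difference of Scin and Nqo1, MBELN minus PBS on the log2 scale (x axes), as reported and under 17 alternatives (y axis), filled where the adjusted p was under 0.05. Scin lies between -11.18 and -4.98 in every alternative shown, and Nqo1 between -3.56 and 5.30. The last 2 settings have 1 array alone in a group, and in the last that array, MBELN 2, is below its receptor level for both genes, so its values and fills are no measured change.

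The 10 genes shared the place of MBELN 2. Among the 3 MBELN arrays, MBELN 2 had the lowest value for 10 of the 10 genes, against 46.2% of all probe sets, with gaps to the next array as small as 0.08 for Aldh3a1 and 0.12 for Arnt. Over all 6 arrays it was lowest for 6 of the 10 (27.3% of all probe sets). MBELN 1 was highest for 6 of the 10 (15.2%). These counts include genes below the receptor level, for which the order carries no meaning.

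The genes whose pattern over the 6 arrays was most like that of Ahr were Zfp330, Arhgef5, Adprm, Samsn1 and Zfp36, with Pearson's r between 0.959 and 0.972. They were taken from 10151 genes above the receptor level in at least 3 arrays and with a span of at least 1 log2 unit. Of these genes, 0.680% reached an r of 0.9 with Ahr. For Scin the 5 most alike were Naip6, A1cf, Myo1a, Naip5 and Dqx1, with r between 0.998 and 0.999, and 10.3% of the genes reached 0.9. Myo1a, the brush border myosin, read 14.60, 10.05 and 15.17 in the PBS arrays, against 4.75, 3.09 and 4.41 in the MBELN arrays. A1cf, a partner of the Apob mRNA editing enzyme, read 14.35, 9.71 and 13.80 in the PBS arrays, against 4.77, 2.67 and 4.51 in the MBELN arrays. With 6 points that share the marker differences given above, these r are descriptions.

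The genes around the receptor were described through 5 further lists with 79 measured genes that are none of the 10, with Bach1 in 2 of the lists. Of the 79, 5 fell, 0 rose and 74 did not pass (limma), while 19 had an unadjusted p under 0.05, and 2 were higher and 17 lower in MBELN with no overlap between the groups. The background is 3.76% of all probe sets called lower, 17.8% with an unadjusted p under 0.05, and 11.9% and 13.4% without overlap on the higher and the lower side. Their median difference was -0.31, against 0.09 over all probe sets.

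**Figure D5:**
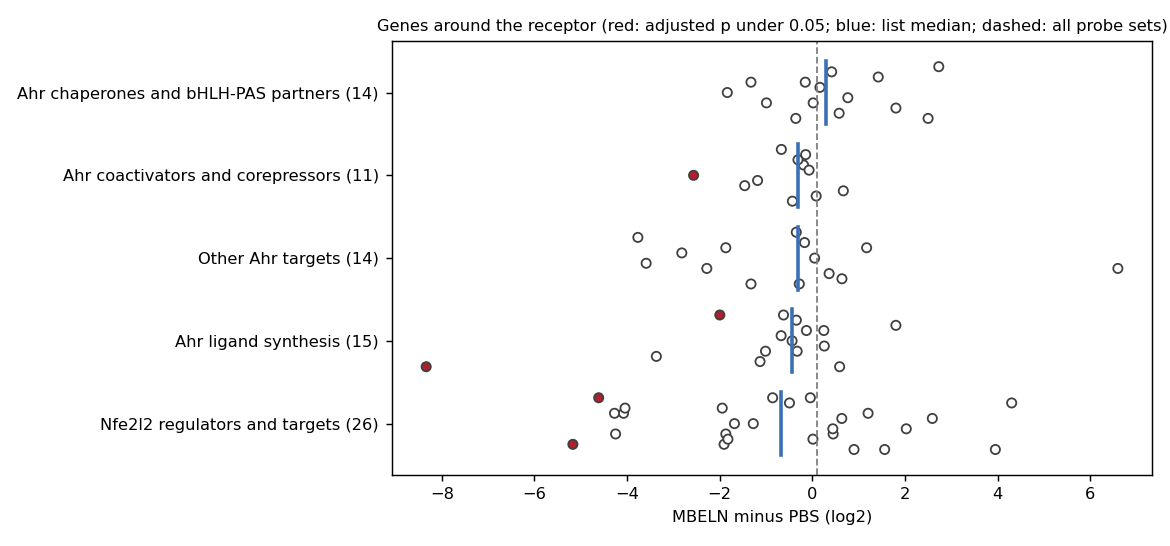
Difference, MBELN minus PBS on the log2 scale (x axis), of each gene in the 5 lists around the receptor (y axis, number of measured genes in brackets), red where the adjusted p was under 0.05, with list medians in blue and the median of all probe sets dashed. List medians lie between -0.68 and 0.29, and the 5 red points, those of Maoa, Pgd, Txnrd1, Nrip1 and Tph1, lie below 0.

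Of 14 chaperones and bHLH-PAS relatives, which hold the receptor ready, carry it or share its fold, 0 passed and 0 had an unadjusted p under 0.05 (limma). Over all probe sets these shares were 5.18% and 17.8%. The list's median difference was 0.29. Epas1, the hypoxia factor that also pairs with Arnt and is known from endothelium, read 7.13, 10.72 and 6.23 in the PBS arrays, against 11.93, 8.45 and 11.88 in the MBELN arrays. PBS 2 lay above MBELN 2, so the groups overlapped. Ptges3, the p23 cochaperone of the Ahr complex, read 5.99, 6.57 and 7.14 in the PBS arrays, against 7.70, 6.66 and 7.63 in the MBELN arrays. Clock and Hsp90aa1 had the next smallest p, and neither passed (adjusted p = 0.502 and 0.577).

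Of 11 coactivators and corepressors, 1 fell and 0 rose, 3 had an unadjusted p under 0.05 (limma), and the list's median difference was -0.31. Over all probe sets, 3.76% fell, 1.42% rose and 17.8% had such an unadjusted p. Nrip1, a corepressor of nuclear receptors, read 11.30, 10.53 and 11.42 in the PBS arrays, against 8.16, 9.29 and 8.10 in the MBELN arrays. It fell by 2.57 ± 0.46 (log2 units, SE, n = 3; limma, adjusted p = 0.0393). Its call ended without PBS 1 (limma, adjusted p = 0.177), PBS 3 (0.170), MBELN 1 (0.144) or MBELN 3 (0.144), and with a trended robust variance (0.0928). Trip11, Ep300 and Ncoa2 had differences of -1.18, -1.46 and 0.67 and did not pass.

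Of 15 genes of tryptophan metabolism, a source of Ahr ligands, 2 fell and 0 rose. In this list 3 had an unadjusted p under 0.05 (limma), and 5 were below the receptor level in all arrays. The shares of all probe sets were 3.76% lower, 1.42% higher, 17.8% with such a p and 28.8% below that level. Maoa, a monoamine oxidase that degrades serotonin and tryptamine, read 14.53, 14.17 and 14.79 in the PBS arrays, against 7.09, 4.82 and 6.56 in the MBELN arrays. It fell by 8.34 ± 0.64 (log2 units, SE, n = 3, limma, adjusted p = 0.00268). The call held in every alternative with more than 1 array in each group. Tph1, the tryptophan hydroxylase of enterochromaffin cells, read 5.72, 5.67 and 5.90 in PBS and did not exceed the receptor level in any MBELN array, at least 2.74-fold lower (limma, adjusted p = 0.0416). That call ended without any 1 array other than MBELN 2, with adjusted p from 0.0522 without MBELN 1 to 0.180 without PBS 3, and also with a trended robust variance (0.0840). Ido1, which opens the kynurenine route, was above the receptor level in PBS 1 and PBS 3, at 8.29 and 7.58, and not in PBS 2 (3.68) or any MBELN array (adjusted p = 0.246). Kyat3 read 7.47, 4.37 and 7.59 in MBELN and 5.06, 4.53 and 4.43 in PBS (adjusted p = 0.393).

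Of 14 other genes listed as Ahr targets, 0 passed, 3 had an unadjusted p under 0.05 (limma), and the median difference was -0.32. Beside these counts, 5.18% of all probe sets passed and 17.8% had such an unadjusted p. Pmaip1, a pro-apoptotic BH3 protein, read 7.58, 9.09 and 6.01 in PBS and did not exceed the receptor level in any MBELN array (adjusted p = 0.0718). Gsta2, a glutathione transferase of the classic Ahr gene battery, read 9.16, 9.06 and 8.98 in the PBS arrays, against 6.99, 2.91 and 6.00 in the MBELN arrays (adjusted p = 0.134). Its PBS values lay close together and its MBELN values far apart. Bach1 and Ereg had adjusted p of 0.190 and 0.294.

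Of 26 regulators and targets of Nrf2, 2 fell and 0 rose, beside 3.76% and 1.42% of all probe sets. In this list 11 had an unadjusted p under 0.05 (limma), as 17.8% of all probe sets did, and the median difference was -0.68. Txnrd1, the cytosolic thioredoxin reductase, read 12.84, 12.35 and 13.09 in the PBS arrays, against 8.47, 7.88 and 8.09 in the MBELN arrays. It fell by 4.61 ± 0.33 (log2 units, SE, n = 3; limma, adjusted p = 0.00230). Pgd, which makes NADPH in the pentose phosphate pathway, fell by 5.17 ± 0.39, from 12.19 ± 0.55 to 7.02 ± 0.33 (SD; limma, adjusted p = 0.00257). Both calls held in every alternative with more than 1 array in each group. Gsr, glutathione reductase, read 13.73, 10.44 and 13.84 in the PBS arrays, against 8.42, 8.22 and 9.23 in the MBELN arrays and did not pass (adjusted p = 0.0975). Taldo1, transaldolase, was also lowest of the PBS arrays in PBS 2, at 9.23 against 12.66 and 12.67 (adjusted p = 0.112). Without PBS 2 the number of the 79 genes past the threshold was 11, beside 7.21% of all probe sets, and without MBELN 2 it was 18, beside 16.8%. Without any 1 of the other 4 arrays it was 3, beside 1.7% to 2.26%. With PBS 2 and MBELN 2 both left out it was 36, of which 13 were higher and 23 lower, beside 30.5% of all probe sets, so the background moved with these counts. Beside these lists, the gut epithelial median was 17.57 to 17.83 in PBS and 3.32 to 4.89 in MBELN, and its part was not tested.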

How the data were processed

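Each probe set has 1 deposited value per array, taken as log2 because the lowest was 1.45 and array medians lay between 4.38 and 4.55. Transcriptome Analysis Console 4.0 is named per the submitters' processing notes. How probes were summarized and normalized, and on which build, is not given in the sources used here. Per the labels' protocols, RNA was extracted with Trizol and made into biotinylated cRNA. The labels name Ion AmpliSeq as well as an Affymetrix protocol.

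The 6640 control probe sets were left out. The remaining 22206 were fitted with lmFit and eBayes of limma 3.58.1 (R 4.3.3), MBELN minus PBS, without covariates, two-sided, with 4 residual and 1.66 prior degrees of freedom. A lower bound of the fold is given only where no array of 1 group and all arrays of the other exceeded the receptor level. It sets the mean of the group above against the mean receptor level of the group below. Depth is not defined for arrays, and their number limits the precision. The procedure was tested on simulated data.

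The 10 genes and all lists were chosen with earlier results of these data known. From each list, up to 4 genes with the smallest p and all that passed are named. The alternatives tried were median centring, quantile normalization, array weights, a trended robust variance, leaving out dim probe sets, replicate and control level blocks, values raised to the receptor level, other thresholds and arrays left out. Another probe set per gene was not run, since each of the 10 has 1. Leaving out PBS 2 with MBELN 2 and the fits within a control level were added after seeing the data.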

Additional observations from a re-analysis of the deposited data

How the results depend on the processing

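The number of probe sets past the threshold was 1150 and lay between 377 and 3738 when 1 array was left out. It was 5757 with array weights, 456 with a replicate block, 407 and 1772 at adjusted p of 0.01 and 0.10, 6769 without PBS 2 and MBELN 2, and 4174 within the higher and 7234 within the lower hybridisation control level. For the 10 genes, 1 passed, beside 5.18% of all probe sets. With 1 array left out 0 to 2 passed, beside 1.7% to 16.8%. The count was 2 with array weights and 2 without PBS 2 and MBELN 2, beside 25.9% and 30.5% of all probe sets. At an adjusted p of 0.01 it was 0, beside 1.83% (limma, with 1 gene at an unadjusted p under 0.05). Of all probe sets, 865 (3.9%) passed with a trended robust variance and 1375 (6.19%) with the control level as a block. The share was 25.9% with array weights and 2.05% with a replicate block. It was 1.83% at an adjusted p of 0.01 and 30.5% without PBS 2 and MBELN 2. Counts within a control level rest on 1 array alone in a group and carry no weight here. For the 79 genes around the receptor, 5 passed, beside 5.18% of all probe sets. With 1 array left out 3 to 18 passed, beside 1.7% to 16.8%. That count was 3 with a trended robust variance, 30 with array weights, 3 with a replicate block, 8 with the control level as a block, 3 at an adjusted p of 0.01, 36 without PBS 2 and MBELN 2, and 19 and 36 within the higher and lower control level.

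The difference of Tiparp turned to 0.35 with array weights, 0.11 without PBS 2, 0.14 without MBELN 2 and 0.38 without both, and ran from -0.52 to 0.14 with 1 array left out. Ahrr turned to 0.12 with values raised to the receptor level, and Cyp1a1 to -0.031 without MBELN 1, with a range up to 0.32 over the arrays left out. Cyp1a1 lay below the receptor level in every array and Ahrr in all but PBS 3, so no turn of either is a measured change. Within the lower control level Arnt, Cyp1a1 and Nqo1 turned to -0.018, -0.13 and -3.56, and Nfe2l2 turned to 0.22 within the higher. The differences of Tiparp, Ahrr and Cyp1a1 in the other settings were without a call. Fits within a control level leave 1 array alone in a group, so their differences are given without a test. That of Nqo1 within the lower level rests on MBELN 2, a value below its receptor level. Nqo1 passed with array weights (3.36, adjusted p = 0.0301). The cause was not tested.

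Same-numbered arrays did not deviate together (r = -0.03, -0.07 and -0.06 for numbers 1, 2 and 3). Arrays of 1 label also differed in tissue markers, so these r cannot settle whether the numbers pair samples. With a replicate block, Scin kept its call (limma, adjusted p = 0.0309), and Nrip1 (0.164) and Tph1 (0.132) lost theirs. Signals near the receptor level limit what can be said of Cyp1a1, Aldh3a1, Ahrr and Cyp1b1.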

Other observations

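Several genes of the lists around Ahr differed more between arrays of 1 label than between the labels. They were chosen after their values had been seen. Cd36, a fatty acid transporter that Ahr is known to induce, read 18.72, 3.04 and 18.43 in MBELN 1, 2 and 3 and 5.61, 9.79 and 5.0 in PBS 1, 2 and 3. Hsp90aa1, a chaperone of the receptor, read 18.82 in MBELN 2 and between 13.21 and 14.37 in the other 5 arrays. Npas4, a bHLH-PAS factor induced by neuronal activity, read 7.45 in MBELN 2 and lay below the receptor level in the other 5. None of the 3 passed the test of MBELN against PBS.

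Within the Nrf2 list, Gstm1 and Me1 ran against the list's median. Gstm1, a glutathione transferase, read 12.07, 15.40 and 11.90 in the PBS arrays, against 18.04, 15.78 and 17.40 in the MBELN arrays. Me1, the cytosolic malic enzyme, read 7.59, 6.49 and 5.83 in the PBS arrays, against 12.68, 8.19 and 11.95 in the MBELN arrays. For both, the groups did not overlap and the test was not passed (limma, adjusted p = 0.141 and 0.149).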
